A study of Mus musculus with 4 samples.

Results

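Adenylate kinases and nucleoside diphosphate kinases, grouped here as flagellar, were examined as a set of 8 genes. These were Ak1, Ak3, Ak5, Ak7, Ak8, Nme5, Nme7 and Txndc3, the last also named Nme8. The group name does not describe each gene, since Ak3 encodes a mitochondrial form and Ak5 is best known from brain. The 8 genes were chosen by symbol and not by their values. All 8 were found among the 22311 gene symbols of the deposited files, each with a single entry per sample. RNA of whole testes of 24-day-old male mice was sequenced in 2 samples of genotype rfx2-/- (mutant 1 and mutant 2) and 2 control samples (control 1 and control 2). In the labels the controls are wild type and every sample is of strain DBA, whereas the methods of the study describe heterozygous controls and a mixed background of the embryonic stem cell strain and C57BL/6. In the mutant allele, which came from 1 embryonic stem cell clone and is carried in all tissues, the exons for the DNA-binding domain of RFX2 were replaced by a neomycin-resistance cassette. RFX2 is a transcription factor of the RFX family, whose members act on genes of cilia and flagella.

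Values are FPKM, fragment counts scaled to transcript length and to the mapped fragments of the library, so that levels can be compared between genes. Wherever a pair of values is given for a genotype, sample 1 comes before sample 2. The files give between 22553 and 22563 entries per sample and a lower and an upper confidence bound for each FPKM, but no number of reads. Testis markers were present, with 983 to 1133 summed FPKM for the 8 spermatocyte markers. The level of Rfx2 was 36.7 and 39.8 FPKM in the mutant pair and 123 and 89.4 in the control pair (log2 fold change -1.43 ± 0.19 SE, adjusted p 0.00617 by limma). This call was lost without a filter (adjusted p 0.0607 in limma), with median-ratio scaling (0.0829) and without control 1 (0.0710), while over all alternatives the adjusted p ran from 9.77e-09 to 0.0829. The value covers the exons left in the mutant allele as well. Mutant 1 stood apart from the other samples. All 10 markers of elongating spermatids were lower in it than in both controls, and their FPKM summed to 1589, against 7247 in mutant 2, 8441 in control 1 and 5776 in control 2. All 8 markers of round spermatids were also lower in mutant 1 than in both controls, with a sum of 409.8 FPKM, against 793 in mutant 2, 741 in control 1 and 640.2 in control 2. The share of all genes lower in mutant 1 than in both controls was not computed. Between the genotypes, 0 of the 10 and 0 of the 8 markers passed limma at an adjusted p under 0.05. In a whole testis, fewer cells of a type and less RNA per cell cannot be told apart.

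Adenylate kinases interconvert ATP, ADP and AMP and so recover the energy of the second phosphate bond of ATP. Nucleoside diphosphate kinases move a phosphate from a nucleoside triphosphate to a nucleoside diphosphate. In a sperm tail, where dynein motors use ATP along the whole axoneme, several of these enzymes are built into the axoneme or its sheath. Ak7 and Ak8 encode adenylate kinases of motile cilia and flagella, and Ak1 encodes the main cytosolic form, which is also found in sperm tails. Ak3 encodes a form of the mitochondrial matrix that uses GTP, and Ak5 is best known from brain. Nme5 encodes a radial spoke protein, Nme7 a protein of doublet microtubules and of the gamma-tubulin ring complex, and Txndc3 a protein that joins a thioredoxin domain to nucleoside diphosphate kinase domains.

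None of the 8 genes passed the test between mutant and control testes. The 12985 genes tested with limma reached 1 FPKM in 2 or more samples. Among them 0 of the 8 were lower and 0 were higher at an adjusted p under 0.05. Over all genes tested, 2.52% were lower and 0.308% were higher. Before adjustment, 3 of the 8 were lower at a p under 0.05 (Ak1, Ak8 and Nme5), against 6.68% of all genes, and 0 were higher, against 2.01%. Robust eBayes, a variant of the same test that gives less weight to genes of extreme variance, called 2 of the 8 lower, Ak8 and Nme5, and 3.29% of all genes. Without mutant 1, limma called 1 of the 7 that could be tested lower (Nme5), against 3.4% of all genes. Without mutant 2 it called 3 of 7 (Ak1, Ak8 and Nme5), against 7.36% of all genes. Both mutant samples lay below both controls in 6 of the 8 genes (15.2% of all genes tested) and above both controls in 1 gene, Ak5 (16.3%). The values of Ak3 overlapped. The 8 genes had a median log2 fold change of -0.34, compared with 0.032 over all genes tested. Fold changes are on the scale of log2(FPKM + 1), which understates differences of genes with low FPKM.

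**Figure D1:**
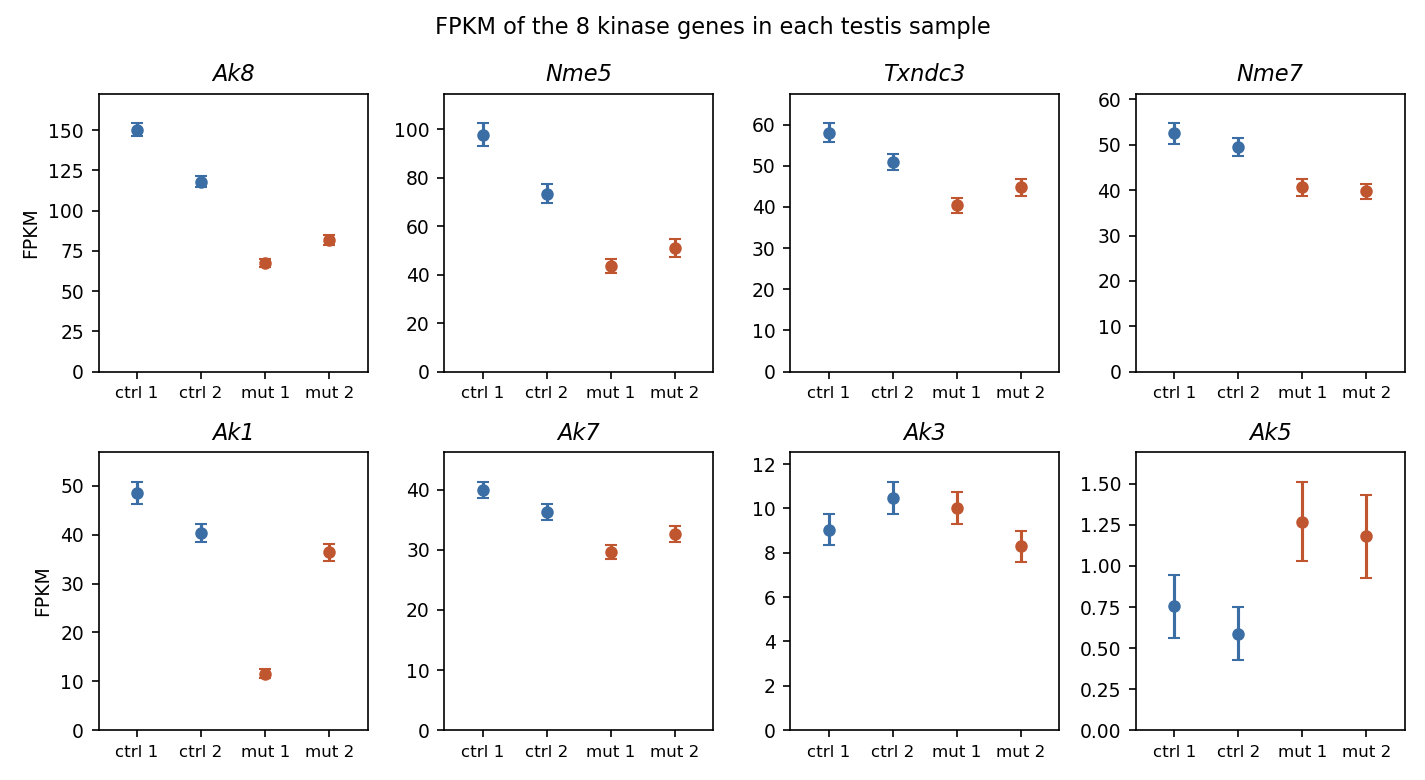
FPKM (linear axes from 0) of the 8 genes in control 1 and 2 (blue) and mutant 1 and 2 (red), ordered by control level, with the deposited confidence bounds as bars. Both mutant samples lie below both controls in Ak8, Nme5, Txndc3, Nme7, Ak1 and Ak7, and above them in Ak5. Ak1 is much lower in mutant 1 than in mutant 2, and Ak3 overlaps.

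Ak8 was the most abundant of the 8 genes in controls and was lower in both mutant samples. Its FPKM was 67.6 and 81.7 in the mutant pair and 150.3 and 117.9 in the control pair. The mutant mean was 55.7% of the control mean. The groups did not overlap, and the gap between them on the log2 scale, 0.52, was wider than the distance between the controls (0.35) or between the mutants (0.27). The difference in Ak8 was -0.83 ± 0.19 (log2, SE) with a 95% confidence interval of -1.28 to -0.39. Its adjusted p by limma was 0.0792, which missed the threshold. Of the 12985 genes tested, 431 had a smaller p.

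Ak7 differed less. Its FPKM was 29.7 and 32.6 in the mutant pair and 39.9 and 36.3 in the control pair. Both mutant samples were again the lower ones, but the gap of 0.15 on the log2 scale was about as wide as the distance between the controls (0.13). For Ak7 the log2 fold change was -0.28 (95% confidence interval -0.66 to 0.093, adjusted p 0.903 by limma).

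Ak1 was far lower in mutant 1 than in the other samples. Its FPKM was 11.6 and 36.4 in the mutant pair and 48.6 and 40.3 in the control pair. The mutant samples differed 3.14-fold from each other, whereas mutant 2 lay just under control 2. The deposited confidence bounds reached 12.5 FPKM at most in mutant 1 and began at 34.7 in mutant 2, so the difference between the mutant samples was wider than the error of the estimates. Over both samples the log2 fold change was -1.06 ± 0.43 SE (95% confidence interval -2.07 to -0.058, adjusted p 0.510 by limma). Without mutant 1 it was -0.28, and without mutant 2 it was -1.85 with an adjusted p of 9.08e-14, where mutant 1 is the lone mutant sample and is assumed to vary like the controls. Over all alternatives the adjusted p of Ak1 ran from 9.08e-14 to 1.0.

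Ak3 and Ak5 were at lower levels. For Ak3 the FPKM was 10.02 and 8.28 in the mutant pair and 9.05 and 10.5 in the control pair. These values interleaved, with a log2 fold change of -0.086 (95% confidence interval -0.56 to 0.39, adjusted p 1.0 by limma). Ak5 was near the minimum of the filter, with 1.27 and 1.18 FPKM in the mutant pair and 0.754 and 0.587 in the control pair. It passed the FPKM filter only through the mutant samples, so some difference in that direction was built into its selection. The confidence bounds of Ak5 spanned up to 27.7% of the value on either side and overlapped between mutant 2 and control 1. Its log2 fold change was 0.41 (95% confidence interval -0.01 to 0.84, adjusted p 0.615 by limma), and it was 0.79 with a pseudocount of 0.1.

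Nme5 was the nucleoside diphosphate kinase gene with the largest difference among the 3 examined. Its FPKM was 43.6 and 51.0 in the mutant pair and 97.8 and 73.4 in the control pair. The mutant mean was 55.3% of the control mean, close to the 55.7% of Ak8. The samples of the genotypes did not overlap, with a gap of 0.52 on the log2 scale and a distance of 0.41 between the controls. Nme5 had a log2 fold change of -0.83 ± 0.19 SE (95% confidence interval -1.28 to -0.39, adjusted p 0.0816 by limma). Without mutant 1 the log2 fold change was -0.72 and the adjusted p 0.0428, and without mutant 2 it was -0.94 with an adjusted p of 0.000943. In these fits the mutant sample that is kept is assumed to vary like the controls, and over all alternatives the adjusted p of Nme5 ran from 0.000943 to 0.659.

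Nme7 and Txndc3 were lower in both mutant samples by smaller amounts. The FPKM of Nme7 was 40.6 and 39.8 in the mutant pair and 52.5 and 49.5 in the control pair. Replicates of Nme7 lay closer together than those of any other of the 8 genes in the controls, 1.06-fold apart, and were 1.02-fold apart in the mutants. For Nme7 the log2 fold change was -0.33 (95% confidence interval -0.69 to 0.023, adjusted p 0.657 by limma). Txndc3 had an FPKM of 40.4 and 44.7 in the mutant pair and 58.0 and 51.0 in the control pair. Its log2 fold change was -0.35 (95% confidence interval -0.73 to 0.030, adjusted p 0.671 by limma). For all 6 genes that were lower in both mutant samples, the highest upper confidence bound in the mutants lay under the lowest lower bound in the controls. How many of all genes tested met this was not computed. Both mutant samples lay below both controls in 15.2% of them. These bounds cover the estimate within a sample and not the spread between animals.

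By mean FPKM in the controls the order was Ak8, Nme5, Txndc3, Nme7, Ak1, Ak7, Ak3 and Ak5. Ak8 lay above 96.3% of the genes tested and Nme5 above 93.2%. Control values of Txndc3 and Nme7 overlapped (51.0 to 58.0 and 49.5 to 52.5 FPKM). Those of Ak1 and Ak7 nearly met, at 40.3 FPKM for the lower Ak1 value and 39.9 for the higher Ak7 value. Ak3 (mean 9.76 FPKM) and Ak5 (mean 0.671 FPKM) stood well below the others. In the mutant samples Ak8 remained the highest of the 8 in each sample, and Ak1 in mutant 1 was near the level of Ak3.

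The position of each mutant sample against the control mean separated Ak1 from the other genes. On the log2 scale, Ak1 was at -1.85 in mutant 1 and -0.28 in mutant 2. Ak8 was at -0.97 and -0.70, and Nme5 at -0.94 and -0.72, so these genes were low in both mutant samples. The 10 elongating spermatid markers had a median of -1.26 in mutant 1 and 0.22 in mutant 2, and the 8 round spermatid markers had medians of -0.83 and 0.24. Of the 8 kinase genes, 5 were lower in mutant 1 than in mutant 2, as were 31.9% of all genes tested. The part of the spermatid markers in the values of Ak1 was not tested. In mutant 2, where the medians of both spermatid marker lists were above the control mean, 7 of the 8 kinase genes were below both controls, as were 32.5% of all genes tested.

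**Figure D2:**
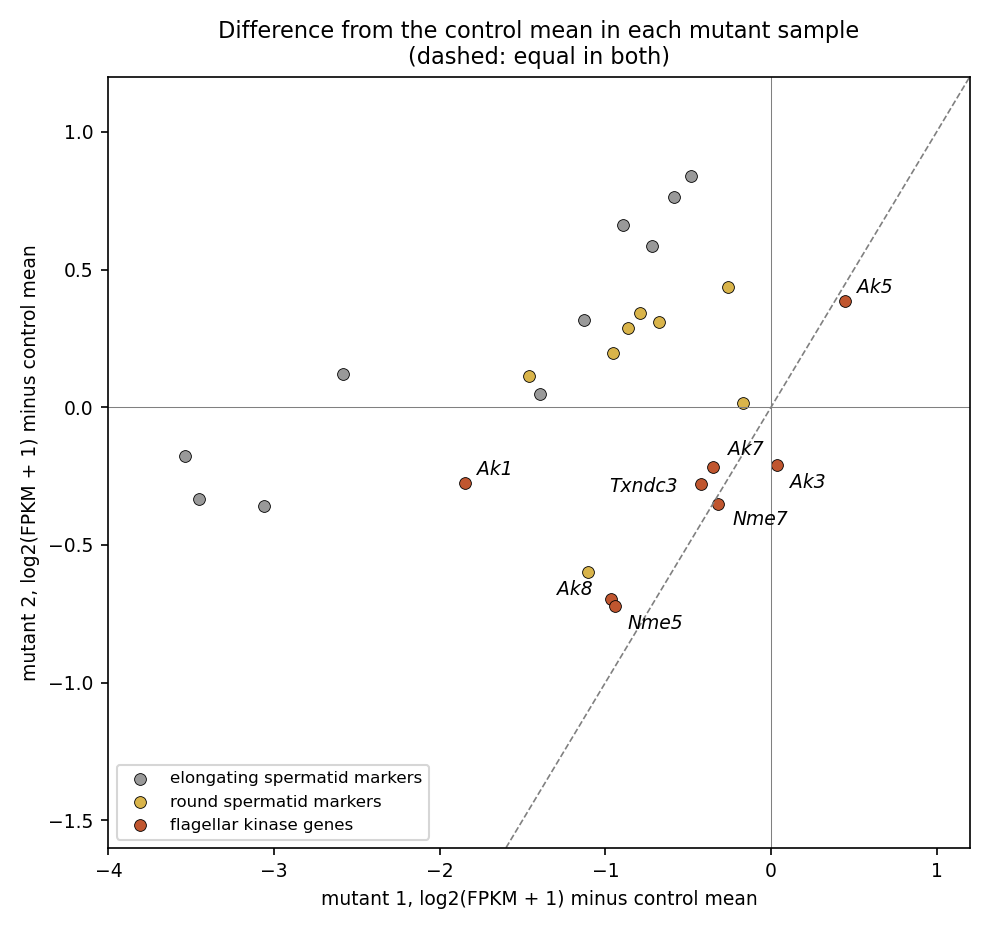
Difference of log2(FPKM + 1) from the control mean in mutant 1 (horizontal axis) and mutant 2 (vertical axis) for the 8 kinase genes (red), 10 elongating spermatid markers (grey) and 8 round spermatid markers (yellow). Ak8, Nme5 and Ak1 are below 0 on both axes, and Ak1 lies farther to the left than Ak8 and Nme5, at -1.85 and -0.28.

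The summed levels show how much each gene contributed. The 5 adenylate kinase genes chosen (Ak1, Ak3, Ak5, Ak7 and Ak8) summed to 120.1 and 160.2 FPKM in the mutant pair and 249 and 206 in the control pair. Ak8 gave 60.5% and 57.3% of this sum in the controls and 56.3% and 51.0% in mutant 1 and 2. Ak1 gave 19.5% and 19.6% in the controls, 9.64% in mutant 1 and 22.7% in mutant 2. Of the 8 nucleoside diphosphate kinase genes, the sum was 277 and 274 FPKM in the mutant pair and 342 and 314 in the control pair. Nme5, Nme7 and Txndc3 together gave 125 and 136 FPKM in mutant 1 and 2, against 208 and 174 in control 1 and 2. The other 5 genes gave 152 and 138 FPKM in mutant 1 and 2, against 134 and 140.4 in the controls, so that the samples overlapped.

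**Figure D3:**
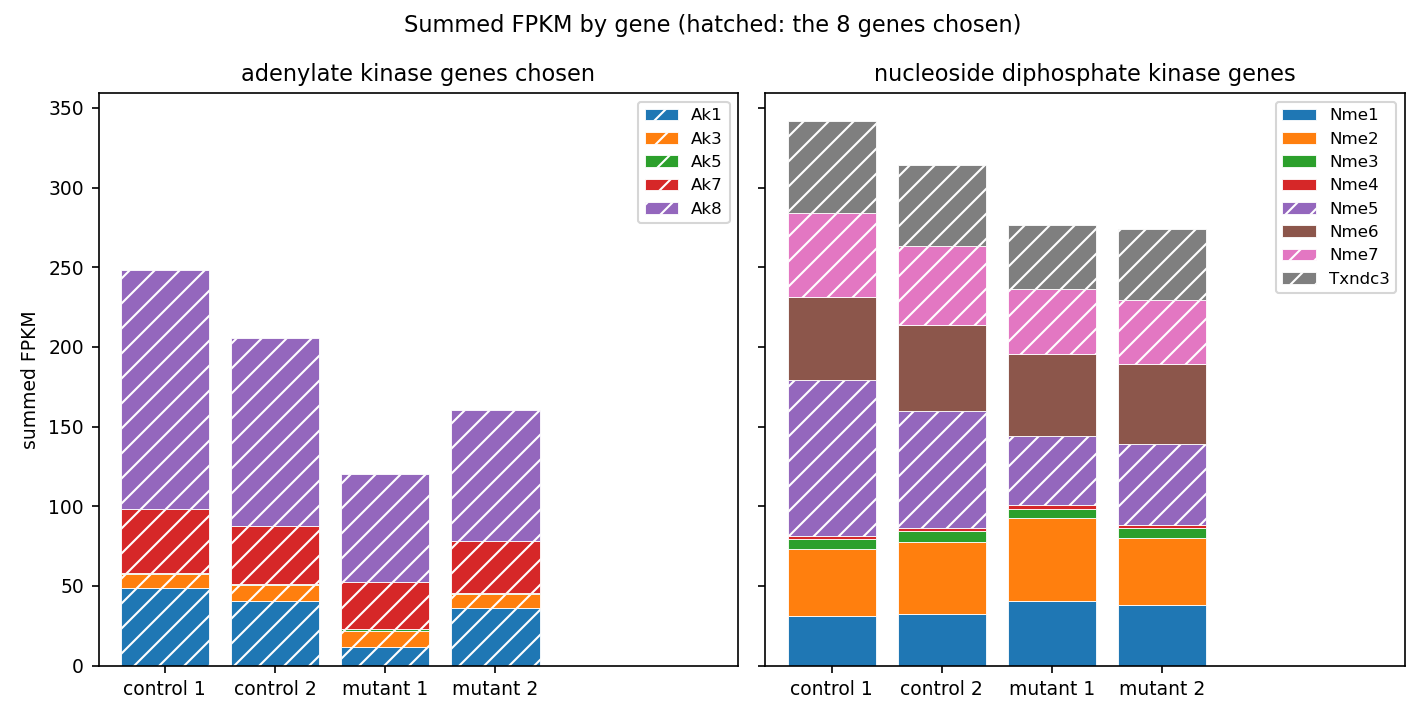
Summed FPKM (linear axis from 0) of the 5 adenylate kinase genes chosen (left) and the 8 nucleoside diphosphate kinase genes (right) in each sample, stacked by gene, with the 8 genes chosen hatched. The Ak8 layer is narrower in both mutant samples, the Ak1 layer is thin in mutant 1, and Nme5 is the layer with the largest difference on the right.

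Lists of other genes of nucleotide and energy metabolism and of thioredoxins were read from the same fit. At an adjusted p under 0.05 in limma, 2.52% of all genes tested were lower and 0.308% were higher. With shares this small, 0 calls in short lists do not set them apart from all genes, or from the 8 kinase genes. Of 4 other nucleoside monophosphate kinase genes tested, 0 passed limma in either direction, with log2 fold changes from -0.042 for Ak4 to 0.26 for Guk1, the guanylate kinase. Of the 5 other nucleoside diphosphate kinase genes, 0 passed, with values from -0.19 for Nme3 to 0.30 for Nme1. None of 15 ADP/ATP carrier and glycolysis genes passed, and their log2 fold changes ran from -0.74 for Eno4, a sperm enolase, to 0.21 for Pgam2, a phosphoglycerate mutase. Of 6 AMP-activated kinase and AMP deaminase genes tested, 0 passed, with values from -0.23 for Prkaa1 to 0.24 for Prkag1. Of 7 thioredoxin and thioredoxin reductase genes, 0 passed. The values ran from -0.56 for Txndc2, a thioredoxin, to 0.17 for Txnrd3, a reductase, both of them sperm forms. The value of Txndc2 came from mutant 1, at -1.41 against the control mean, and was 0.29 in mutant 2. Eno4 had 11.9 and 14.4 FPKM in the mutant pair and 24.6 and 20.5 in the control pair (adjusted p 0.130 by limma), so its samples did not overlap. Before adjustment, Eno4 and Pgk2, the phosphoglycerate kinase of spermatids, were the 2 genes of these 5 lists at a p under 0.05 in limma, both lower. The lists held 4, 5, 15, 6 and 7 tested genes. Among all genes tested, 6.68% were lower and 2.01% were higher at that p.

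Of the creatine kinase genes 2 were tested. Ckmt2, the sarcomeric mitochondrial form, had an FPKM of 0.0775 and 0.0303 in the mutant pair and 4.33 and 4.47 in the control pair. Ckmt2 fell by 2.36 on the log2 scale in the mutant (SE 0.19, adjusted p 0.000399 by limma). It passed the FPKM filter only through the control samples, so some difference in that direction was built into its selection. Ckb, the brain-type creatine kinase and the other creatine kinase gene tested, was at 3.77 and 3.75 FPKM in mutant 1 and 2 and at 3.13 and 3.83 in control 1 and 2 (log2 fold change 0.090, adjusted p 1.0 by limma).

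The radial spoke and doublet microtubule genes that encode neighbours of these kinases were compared next. Of 12 such genes tested, 5 fell and 0 rose at an adjusted p under 0.05, where 2.52% of all genes tested were lower and 0.308% higher, with a list median of -0.66 in log2 fold change, against 0.032 for all genes. The same 5 genes were called without mutant 1, where mutant 2 is the lone mutant sample. Dnajb13 was not called without a filter or with median-ratio scaling, which left 4 genes, and without mutant 2 Dydc2 was called as well, which made 6. Ccdc19, also named Cfap45, encodes a protein inside doublet microtubules that is linked to AK8 in motile cilia. Its FPKM was 27.0 and 23.5 in the mutant pair and 160.1 and 137 in the control pair (log2 fold change -2.51 ± 0.17 SE, adjusted p 0.000155 by limma). Wdr16, also named Cfap52, and Enkur encode further proteins of the doublet, and Dnajb13 and Rsph9 encode radial spoke proteins. Their log2 fold changes were -1.75, -1.50, -2.07 and -5.41. The study had named Rsph9 among the cilia and flagella genes regulated by RFX2. The radial spoke and doublet list was chosen with earlier results of these data known, so its count is a description. The remaining 7 genes ran from -0.89 for Dydc2 to 0.33 for 1700007K13Rik and did not pass. Dydc2 was low in mutant 1 alone, at -1.66 against the control mean, and at -0.12 in mutant 2.

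Within each sample, the level of Ccdc19 relative to Ak8 was also lower in the mutants. The ratio of their FPKM was 0.399 and 0.288 in the mutant pair and 1.07 and 1.16 in the control pair. The ratio of Rsph9 to Nme5 was 0.0216 and 0.0206 in mutant 1 and 2, and 0.991 and 0.993 in control 1 and 2. The ratio of Wdr16 to Ak8 was 0.339 and 0.230 in the mutant pair and 0.515 and 0.570 in the control pair. For Enkur to Ak8 it was 0.393 and 0.361 against 0.594 and 0.627. Ccdc19, Rsph9, Wdr16 and Enkur had been called lower in these same samples, so the ratios restate their fold changes. With 2 samples against 2, the 2-sided exact permutation test cannot go below p = 0.333. This was its value for Ccdc19 to Ak8 and for Rsph9 to Nme5, so it decides nothing.

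**Figure D4:**
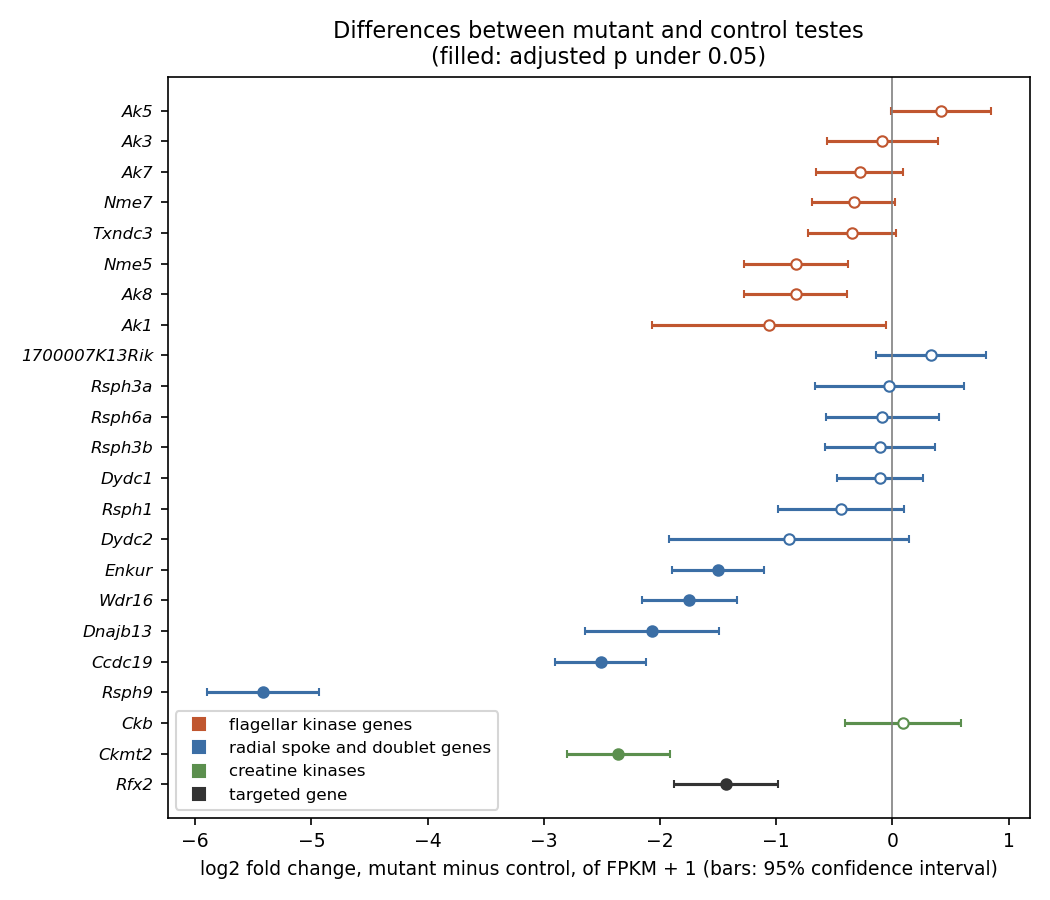
Log2 fold change of FPKM + 1 (horizontal axis, mutant minus control) with 95% confidence intervals for the 8 kinase genes, the radial spoke and doublet genes, the creatine kinases and Rfx2, filled where the adjusted p from limma was under 0.05. All 8 kinase genes are open symbols between -1.06 and 0.41, while Rsph9, Ccdc19, Ckmt2, Dnajb13, Wdr16 and Enkur are filled at -1.50 or lower.

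Promoter windows were searched for the X-box, the motif that RFX factors bind. The RefSeq windows (build GRCm38.p6) reach from 250 bases before to 50 bases after a transcript start, 300 bases in all. An X-box without mismatch, with 0 to 3 bases between its arms and on either strand, lay in 1.53% of the 32851 windows and in at least 1 window of 1.75% of the 27025 genes. Of the 8 kinase genes, 6 had windows, 9 in all, and 1 of the 6 genes, Nme7, held an X-box. Ak5 and Nme5 were not in the table. The windows of Nme7, of Ak8 and of Ccdc19 are shown because they set the kinase gene with an X-box beside the most abundant kinase gene and beside its neighbour in the axoneme that fell. Capitals mark the X-box, and in Ak8 none was found. All 3 genes are on the plus strand. The window of Nme7 is chr1:164307422-164307721, that of Ak8 is chr2:28699911-28700210 and that of Ccdc19 is chr1:172520880-172521179.
Nme7: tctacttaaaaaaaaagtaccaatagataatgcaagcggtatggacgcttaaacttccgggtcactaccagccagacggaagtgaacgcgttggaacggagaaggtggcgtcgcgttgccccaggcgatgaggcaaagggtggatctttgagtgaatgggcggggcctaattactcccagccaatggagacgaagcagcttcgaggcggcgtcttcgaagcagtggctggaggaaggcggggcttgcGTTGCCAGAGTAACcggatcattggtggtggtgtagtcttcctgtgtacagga
Ak8: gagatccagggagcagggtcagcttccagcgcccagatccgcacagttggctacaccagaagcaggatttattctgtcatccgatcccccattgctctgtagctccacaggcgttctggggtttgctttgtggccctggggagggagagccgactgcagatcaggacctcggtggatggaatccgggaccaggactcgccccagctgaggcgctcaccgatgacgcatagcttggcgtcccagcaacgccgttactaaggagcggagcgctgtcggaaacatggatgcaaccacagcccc
Ccdc19: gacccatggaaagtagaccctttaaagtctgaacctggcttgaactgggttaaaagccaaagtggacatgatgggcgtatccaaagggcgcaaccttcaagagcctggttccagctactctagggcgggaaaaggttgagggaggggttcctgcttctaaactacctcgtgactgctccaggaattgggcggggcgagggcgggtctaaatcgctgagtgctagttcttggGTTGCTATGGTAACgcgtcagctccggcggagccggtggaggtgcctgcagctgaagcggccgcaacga
In Nme7 the X-box ran from base -3 to base 11 around the transcript start, which is counted as base 1, and in Ccdc19 it ran from -19 to -6 and reads GTTACCATAGCAAC on the opposite strand. Both have 2 bases between the arms. Fold changes on the log2 scale were -0.33 for Nme7 and -2.51 for Ccdc19, and -0.83 for Ak8, whose window held no X-box. The same search found no X-box in the windows of Wdr16, Enkur, Rsph9, Dnajb13 and Ckmt2, which were called lower as well. The study instead scanned longer promoter regions with a positional weight matrix. A gene without an exact X-box in these windows may therefore hold a site predicted by that scan. A match in these letters is a description and not evidence of binding.

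In NCBIM37 (mm9), the build of the deposited files, the annotation places Ak8 at chr2:28555684-28668685 and Ak1 at chr2:32477278-32502325, both on the plus strand. Nme7 lies at chr1:166243010-166334805 and Ak7 at chr12:106944192-107020657 on the plus strand, and Txndc3 lies at chr13:19736947-19789663, Ak3 at chr19:29095323-29122451 and Ak5 at chr3:152125779-152331104 on the minus strand. Nme5 is on chromosome 18. Ak1 overlaps Eng and Ak7 overlaps Papola on the same strand. On opposite strands, Ak3 overlaps Cdc37l1, and Ak5 overlaps Zzz3 and the lincRNA gene AI115009. Ak8 overlaps the miRNA gene AL731851.2 on the same strand and the pseudogenes Gm13385 and Gm13386 on the opposite strand. Whether the libraries kept the strand is not given in the sources used here, so reads in the overlaps could not be assigned. Ak1 has 6 annotated transcripts, and the deposited values do not separate them.

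Genes with the values closest to those of a kinase gene were found by the Euclidean distance of log2(FPKM + 1) over the 4 samples. Since no kinase gene passed the test, Ak1, Ak8 and Nme7 were chosen for this after their values were seen. Closest to Ak1 were 4930571K23Rik, 4931407G18Rik and Tepp, at distances of 0.35 to 0.44. Each had 10.3 to 10.7 FPKM in mutant 1 and at least 37.5 FPKM in the other samples, a likeness that follows from the choice. Closest to Ak8 were Grcc10, 1700016K19Rik and Fank1, at distances of 0.22 to 0.29. For Nme7 the closest were Kif3b, a kinesin subunit of intraflagellar transport, at 0.046, then Suds3 at 0.074 and Wdr35, another intraflagellar transport gene, at 0.16. Whether the nearest genes share a function was not tested.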

How the data were processed

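The authors aligned reads to mm9 with TopHat2 (version 2.0.6 in the submitters' processing notes) and deposited Cufflinks FPKM per gene with confidence bounds, normalized for length and depth within a sample. Entries that share a symbol were summed, 1 was added and log2 was taken. A gene entered the test if 2 or more samples reached 1 FPKM. Genotypes were contrasted in limma 3.58.1 (R 4.3.3), with a trended eBayes prior and 2-sided p adjusted by Benjamini-Hochberg over all genes tested (threshold 0.05). The functions were tested on simulated data. Tables were made with python 3.11.15 and pandas 2.3.3. The authors' Cuffdiff comparison was not repeated here. The labels do not say whether the samples of a genotype came from separate animals, while the methods call them independent biological samples. The genes, the lists and the tests were chosen with earlier results of these data known. Named are the 8 kinase genes, Rfx2, and of each list the genes that passed and those with the highest and lowest fold change. Pgk2 and the genes nearest in value were named after their values were seen. Lists were fixed from textbook knowledge, and the counts, which cover the genes found in the files, are descriptions. Marker lists for spermatogonia, spermatocytes, round and elongating spermatids, Sertoli, Leydig, peritubular, macrophage and red blood cells had 0 genes that passed in either direction. The alternatives were a pseudocount of 0.1, no filter, a filter at an FPKM of 5, a replicate block, robust eBayes, an untrended prior, quantile and median-ratio scaling, the highest entry in place of the sum, and each sample left out. The crossed block, and the counts of the other gene lists under these alternatives, were chosen after seeing the data. A withheld item is not reported here.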

Additional observations from a re-analysis of the deposited data

How the results depend on the processing

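Of the 8 kinase genes, the number called lower was 0 in the reported fit, 2 with robust eBayes (Ak8 and Nme5) and 3 with a replicate block by label number (Ak1, Ak8 and Nme5), where 4.04% of all genes were lower. With 1 sample left out it ran from 0 to 3. It was 0 under the remaining alternatives, and the number of higher genes was 0 under every alternative. Same-numbered samples had a correlation of -0.15 in their deviations across genes and share only a number. With the crossed replicate block 0 kinase genes were called. A block leaves 1 residual degree of freedom. Without 1 sample, Ak5 could not be tested when a mutant sample was left out, and the log2 fold change of Ak3 ran from -0.21 to 0.038 and changed sign. The adjusted p of Ak8 ran from 0.00205 to 0.556 over the alternatives and that of Nme5 from 0.000943 to 0.659. The adjusted p of Rfx2, which ran from 9.77e-09 to 0.0829, was over the threshold without a filter (0.0607), with median-ratio scaling (0.0829) and without control 1 (0.0710). Of the radial spoke and doublet genes 4 to 6 were called lower, 4 of them without Dnajb13 when no filter or median-ratio scaling was used. Ckmt2 was called wherever it passed the filter, which it did not at 5 FPKM or without a control sample. The log2 fold change of Ak5 was 0.79 with a pseudocount of 0.1, and its confidence bounds were relatively the widest of the 8 genes. The files give no read depth. With 2 samples per genotype, a gene that missed the threshold was not shown to be unchanged.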
